A study of Homo sapiens with 6 samples.

Results

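Most of the genes described here encode enzymes that place or remove acetyl and methyl groups on histones or remodellers that move nucleosomes, measured in spheroids of SW620 and SW480. They are all genes whose symbol on the array's annotation begins with HDAC, SIRT, KDM, KMT, KAT, SMARC, CHD or ARID, followed by a digit for every prefix but SMARC. The rule found 71 genes, measured by 73 features, among 14884 named genes and 53616 features on the array. SW620 is a colorectal cancer line grown from a lymph node metastasis, and SW480 is a line grown from the primary tumour of the same patient. Both lines were grown without serum and with added growth factors as suspended spheroids, a culture meant to enrich tumour-initiating cells, and 3 arrays of each were run. Each group is a single cell line, neither carried a treatment or an engineered allele, and the submitters describe the replicates as technical. P-values below therefore measure the spread between arrays, which may be technical, and not between cultures or patients.

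Histone acetylation opens chromatin and is removed by histone deacetylases (HDAC) and by the NAD-dependent sirtuins (SIRT), while lysine acetyltransferases (KAT) add it. Lysine methyltransferases (KMT) and demethylases (KDM) write and erase methyl marks that either accompany active promoters and enhancers or hold genes silent. CHD proteins use ATP to move nucleosomes, and ARID proteins bind DNA, some of them as subunits of the BAF remodelling complex, whose genes are often mutated in colorectal cancer.

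The module is wider than its name. Of the 71 genes, 68 code for protein, and the other 3 (KDM7A-DT, KDM4A-AS1 and KMT2E-AS1) are non-coding transcripts that carry the name of a neighbouring gene; how far the array's features keep opposite strands apart was not tested. The ARID3, ARID4 and ARID5 proteins are DNA-binding factors and ARID1A and ARID1B are BAF subunits, and none of them is an enzyme. The sirtuins SIRT3, SIRT4 and SIRT5 are mitochondrial. No measured gene had a SMARC symbol, so the SMARC subunits of remodelling complexes were not analysed here, and neither were KMT2A, KMT2E, KAT6A and ARID2. KDM5D, on the Y chromosome, was measured and is in every count, but its values are not given.

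All values are deposited log2 expression values, and differences are SW620 minus SW480 on that scale. The values ran from 1.99 to 13.9, the array medians lay between 4.04 and 4.07, and arrays of a line correlated with r from 0.988 to 0.992, against 0.963 to 0.965 between lines. No array stood apart. Of 13 listed colon epithelial markers 9 were measured, and 7 of these lay above the median feature (4.065). The summed level of the 9 was 62.3 to 62.8 on the SW620 arrays and 62.2 to 62.9 on the SW480 arrays. These near-equal sums hide changes in both directions, since 3 markers rose (VIL1 by 0.62, KRT19 by 0.51 and KRT8 by 0.40) and 1, CDX2, fell by 1.54. Of 6 listed endothelial markers 4 were measured, and all 4 lay below the median feature. Of 9 listed leukocyte markers 4 were measured, with a summed level of 21.4 to 21.6 in SW620 and 19.6 to 19.9 in SW480. The gap between these sums lay mostly in 1 gene, LYZ, which rose by 1.86. CD68 rose by 0.43, LAPTM5 fell by 0.41 and CD14 did not pass (0.000577). Of 8 listed fibroblast markers 2 were measured. DCN lay below the median feature and LUM rose by 3.22, and the sum was 11.1 to 11.3 in SW620 and 7.47 to 8.22 in SW480. The part of such markers in the results below was not tested. Each culture held a single cell line, so these sums do not measure a content of leukocytes, fibroblasts or endothelium. Within a line, fewer cells expressing a gene and less RNA per cell cannot be told apart.

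The demethylase KDM7A and the non-coding transcript that starts beside it, KDM7A-DT, had the largest differences of the module. Both were lower in SW620. Their start sites lie head to head on chromosome 7, 278 bases apart in the RefSeq annotation, and their 300-base start windows overlap by 223 bases. The KDM7A window is printed because a pair of divergent transcripts that fell together starts around it. It is RefSeq sequence of build GRCh38.p14, 5′ to 3′ along the gene, from 250 bases before the start to 50 after it, with CpG dinucleotides in capitals. The window lies on the minus strand at chr7:140176934-140177233, and its start site is the outer end of the gene in the annotation.
KDM7A: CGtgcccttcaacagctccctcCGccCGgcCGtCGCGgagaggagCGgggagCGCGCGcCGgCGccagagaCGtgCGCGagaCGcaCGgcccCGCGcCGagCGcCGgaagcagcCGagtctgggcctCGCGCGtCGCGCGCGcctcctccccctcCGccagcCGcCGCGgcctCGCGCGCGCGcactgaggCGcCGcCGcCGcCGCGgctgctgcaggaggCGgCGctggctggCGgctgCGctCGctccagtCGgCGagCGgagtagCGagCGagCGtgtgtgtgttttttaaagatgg
The KDM7A window holds 56 CpG, and 0.276% of the 35116 start windows in the RefSeq table hold as many or more. That of KDM7A-DT, on the plus strand at chr7:140177011-140177310, holds 59. On either strand, the GC box GGGCGG was found in both windows, and 45.0% of all windows hold it. The CCAAT box (CCAAT, in 34.6% of all windows) and the TATA box (TATAAA, in 11.5%) were found in neither. A match describes letters in a window, and no binding was measured here.

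Across the module, 33 of 71 genes passed the threshold, an adjusted p below 0.05 in limma with Benjamini-Hochberg adjustment over all 14884 genes. That is 46.5%, against 35.6% of all genes. The module is bright, and brightness moves with this share. Of its 66 genes above the median feature 33 passed, against 49.8% of all 9475 such genes, so the share of changed genes was near the background. Of the 5 dimmer genes 0 passed in limma, and 0 had an unadjusted p below 0.05, while 10.5% of all dimmer genes passed. The direction of the calls leaned upward. In SW620 23 genes were higher (16% of all genes were) and 10 were lower (19.5% of all genes were), which puts 69.7% of the module's calls on the higher side, against 45.1% over all genes. All these calls were in the 66 genes above the median feature. Of all 9475 such genes, 2130 were higher and 2593 lower, larger shares than those over all genes. The median difference was 0.14 in the module and 0.0132 over all genes. Of the 71 genes, 4 passed and reached 2-fold (5.63%, against 6.07% of all genes), namely KDM7A, KDM7A-DT, CHD3 and CHD9. All 4 lay above the median feature. They were 6.06% of the module's 66 such genes, against 9.17% of all genes above the median feature. The arrays of the lines did not overlap for 42 of the 71 genes (45.7% of all genes), and all 33 that passed were among these 42. Among genes above the median feature the arrays did not overlap for 41 of the module's 66, or 62.1%, against 60.0% of all such genes, so this share was near the background as well. By family the share that passed ran from 28.6% of 7 KAT genes and 36.4% of 11 HDAC genes to 57.1% of 21 KDM and of 7 KMT genes. The family counts below stand beside the 35.6% of all genes and the 49.8% of genes above the median feature.

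**Figure D1:**
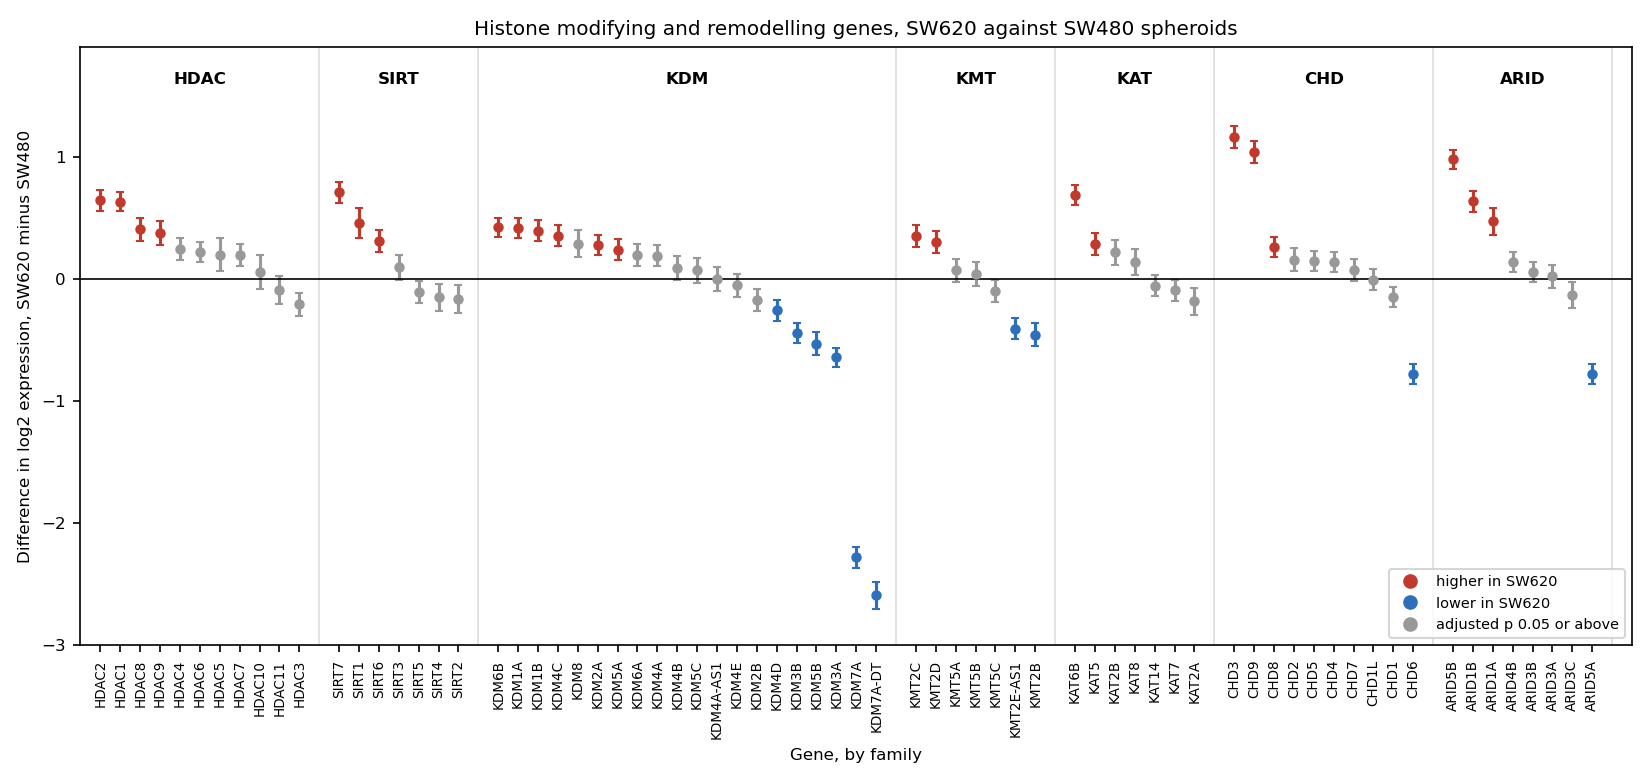
Difference in log2 expression (vertical axis, SW620 minus SW480) of each measured gene except KDM5D, sorted within its family; points are limma estimates and bars their standard errors, red for higher and blue for lower in SW620 and grey for genes that did not pass. KDM7A and KDM7A-DT lie far below all other genes, at -2.28 and -2.59, and the HDAC, SIRT and KAT families have red points only among those that passed.

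**Figure D2:**
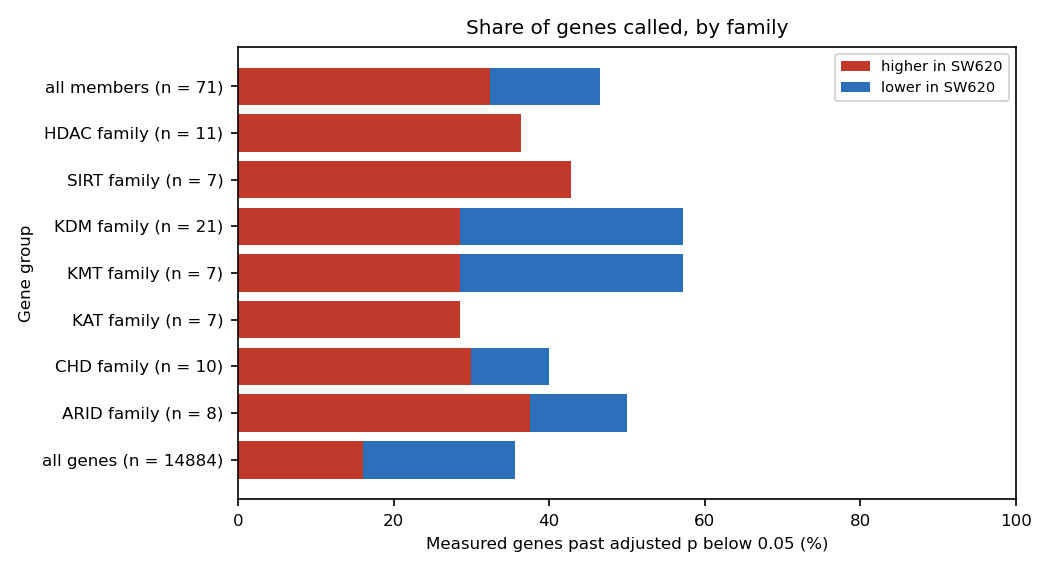
Percentage of measured genes higher (red) or lower (blue) in SW620 at an adjusted p below 0.05, for the module, each family and all genes, with the number measured in brackets. The lower share is 0 in the HDAC, SIRT and KAT families, and in all genes it is 19.5%.

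Among the deacetylases, 4 of 11 rose, 0 fell and 7 did not pass in limma, and at an unadjusted p below 0.05 the numbers were 6 higher and 1 lower. In class I, of which HDAC1, HDAC2 and HDAC3 are catalytic subunits of corepressor complexes, 3 of 4 rose. HDAC1 had 8.85, 8.81 and 8.79 on the SW620 arrays, against 8.15, 8.21 and 8.19 on the SW480 arrays. Its close paralogue HDAC2, which shares the NuRD, CoREST and SIN3 complexes with it, had 8.34, 8.38 and 8.28 in SW620, against 7.77, 7.69 and 7.62 in SW480. The arrays of the lines are well apart for both genes, and the differences were nearly equal in size, 0.63 for HDAC1 (standard error 0.0789, adjusted p = 3.09e-05) and 0.64 for HDAC2 (standard error 0.0831, adjusted p = 4.34e-05), or 1.55-fold and 1.56-fold. A dimmer feature of HDAC2 differed by 0.45 (adjusted p = 0.0113 over all features). HDAC8, an X-linked class I enzyme, had 7.38, 7.67 and 7.53 in SW620, against 7.07, 7.14 and 7.15 in SW480, a rise of 0.41. HDAC3, the catalytic subunit of the NCOR complexes, differed by -0.21 and did not pass (adjusted p = 0.107).

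Class IIa deacetylases shuttle between nucleus and cytoplasm and repress by recruiting other proteins. All 4 had differences above 0, from 0.19 to 0.38, and 1 of them, HDAC9, passed. HDAC9 was dim, with 4.26, 4.37 and 4.52 in SW620, against 3.90, 3.98 and 4.14 in SW480, where its mean lay below the median feature. HDAC4 (0.25, adjusted p = 0.0521), HDAC5 (0.20) and HDAC7 (0.19) did not pass. HDAC4 lay close to the threshold, and its dimmer feature differed by 0.51 (adjusted p = 0.0129 over all features). The class IIb enzymes HDAC6, which deacetylates tubulin (0.22, adjusted p = 0.0518), and HDAC10 (0.0542) and the class IV enzyme HDAC11 (-0.0901) did not pass.

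Of 7 sirtuins 3 rose and 0 fell in limma, with the same 3 and 0 at an unadjusted p below 0.05. The 3 that rose are the nuclear members, and the cytosolic SIRT2 and the 3 mitochondrial members did not pass. SIRT7, a nucleolar deacetylase linked to ribosomal RNA synthesis, had 7.36, 7.15 and 7.25 in SW620, against 6.56, 6.62 and 6.46 in SW480, a rise of 0.71 (standard error 0.0888, adjusted p = 3.27e-05) or 1.63-fold. SIRT1, which deacetylates histones and factors such as p53, had 8.03, 8.08 and 7.61 in SW620, against 7.60, 7.29 and 7.46 in SW480. Its lowest SW620 array lay just above its highest SW480 array, and the rise of 0.46 (adjusted p = 0.0118) had the widest standard error among the called genes of the module, 0.125. SIRT6, which acts at telomeres and in DNA repair, had 5.13, 5.32 and 5.06 in SW620, against 4.81, 4.95 and 4.82 in SW480. Its rise was 0.31 (adjusted p = 0.0192). Both of these calls depended on single arrays. Without SW620 replicate 2 neither passed (adjusted p = 0.0587 for SIRT1 and 0.0853 for SIRT6), SIRT1 also failed without SW480 replicate 2 (0.0557), and SIRT6 without SW480 replicate 1 (0.0626) or replicate 3 (0.0641). The differences of SIRT2 (-0.16), SIRT3 (0.0937), SIRT4 (-0.15) and SIRT5 (-0.11) did not pass. The difference between the nuclear members and the rest was not itself tested.

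Of 7 acetyltransferases, 2 rose and 0 fell in limma, as at an unadjusted p below 0.05. KAT6B, a MYST enzyme of the MOZ and MORF complexes, had 7.75, 7.76 and 7.84 in SW620, against 7.09, 7.10 and 7.10 in SW480, a rise of 0.69 (standard error 0.0796, adjusted p = 1.63e-05) or 1.61-fold. KAT5, known as TIP60 and active in DNA repair, had 5.85, 6.09 and 5.90 in SW620, against 5.75, 5.57 and 5.66 in SW480. The rise of KAT5, 0.29, was weak (adjusted p = 0.0289) and did not pass without SW620 replicate 2 (0.120), SW480 replicate 2 (0.114) or SW480 replicate 3 (0.0698), which leaves KAT6B as the sole call of the family. The GCN5 pair KAT2A (-0.18) and KAT2B (0.22), the histone H4 enzymes KAT7 (-0.0946) and KAT8 (0.14) and the ATAC subunit KAT14 (-0.0569) did not pass.

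Demethylases changed in both directions and held the largest changes of the module. Of 21 KDM genes, 6 rose, 6 fell and 9 did not pass, or 6, 5 and 8 of the 19 that code for protein. KDM7A, which removes repressive methyl groups from histone H3, had 5.83, 6.003 and 5.84 in SW620, against 8.27, 8.13 and 8.12 in SW480. Its divergent transcript KDM7A-DT had 4.35, 4.03 and 4.48 in SW620, against 6.79, 6.95 and 6.91 in SW480. The lowest SW480 array was more than 2 log2 units above the highest SW620 array in either case. KDM7A fell by 2.28 (standard error 0.0879, adjusted p = 4.41e-10), or 4.86-fold, and KDM7A-DT fell by 2.59 (standard error 0.112, adjusted p = 1.35e-09), or 6.04-fold. The lowest SW620 array of KDM7A-DT lay near the median feature, so its fold rests on a dim level.

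The KDM3 pair, which removes repressive methylation from histone H3, fell as well. KDM3A, a gene induced by hypoxia, had 5.96, 5.98 and 5.94 in SW620, against 6.55, 6.59 and 6.68 in SW480, a fall of 0.64 (standard error 0.0813, adjusted p = 3.49e-05) or 1.56-fold. KDM3B had 7.87, 7.93 and 7.92 in SW620, against 8.33, 8.43 and 8.29 in SW480, and fell by 0.44 (adjusted p = 0.000836). The amine oxidase demethylases went the other way. KDM1A, known as LSD1 and the demethylase of the CoREST complex, had 10.28, 10.28 and 10.13 in SW620, against 9.79, 9.80 and 9.85 in SW480, a rise of 0.42 (adjusted p = 0.00144). Its paralogue KDM1B had 7.97, 7.89 and 7.82 in SW620, against 7.56, 7.40 and 7.54 in SW480, a rise of 0.39 (adjusted p = 0.00296).

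Within the KDM5 group, which removes the methyl mark of active promoters, paralogues were split. KDM5B had 6.09, 6.18 and 6.30 in SW620, against 6.71, 6.62 and 6.84 in SW480, and fell by 0.53 (standard error 0.0926, adjusted p = 0.000526). KDM5A rose by 0.24 (adjusted p = 0.0409), a call lost when any single array was left out (adjusted p from 0.0543 to 0.128). The X-linked KDM5C (0.0690) did not pass. KDM6B, which erases the Polycomb mark, had 6.18, 6.14 and 6.09 in SW620, against 5.70, 5.76 and 5.68 in SW480, a rise of 0.42 (adjusted p = 0.00103), and its X-linked relative KDM6A differed by 0.20 (adjusted p = 0.112). KDM4C, a demethylase amplified in some tumours, had 7.10, 7.05 and 7.21 in SW620, against 6.74, 6.87 and 6.69 in SW480, a rise of 0.35 (adjusted p = 0.00654). KDM4A (0.19) and KDM4B (0.0897) did not pass, nor did the dim KDM4E (-0.0533). The weak fall of KDM4D (-0.26, adjusted p = 0.0297) was lost without SW620 replicate 1 (adjusted p = 0.0762), SW620 replicate 2 (0.0817), SW480 replicate 1 (0.0929) or SW480 replicate 3 (0.0991).

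KDM2A, which acts at unmethylated CpG islands, rose by 0.28 (adjusted p = 0.0181), and did not pass without SW620 replicate 1 (0.0640), SW480 replicate 1 (0.0607) or SW480 replicate 3 (0.0574). KDM2B, its paralogue in a variant Polycomb complex, differed by -0.17 (adjusted p = 0.163). KDM8 (0.29, adjusted p = 0.0559) lay near the threshold, and the antisense transcript KDM4A-AS1 (-0.00351, adjusted p = 0.984) far from it.

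**Figure D3:**
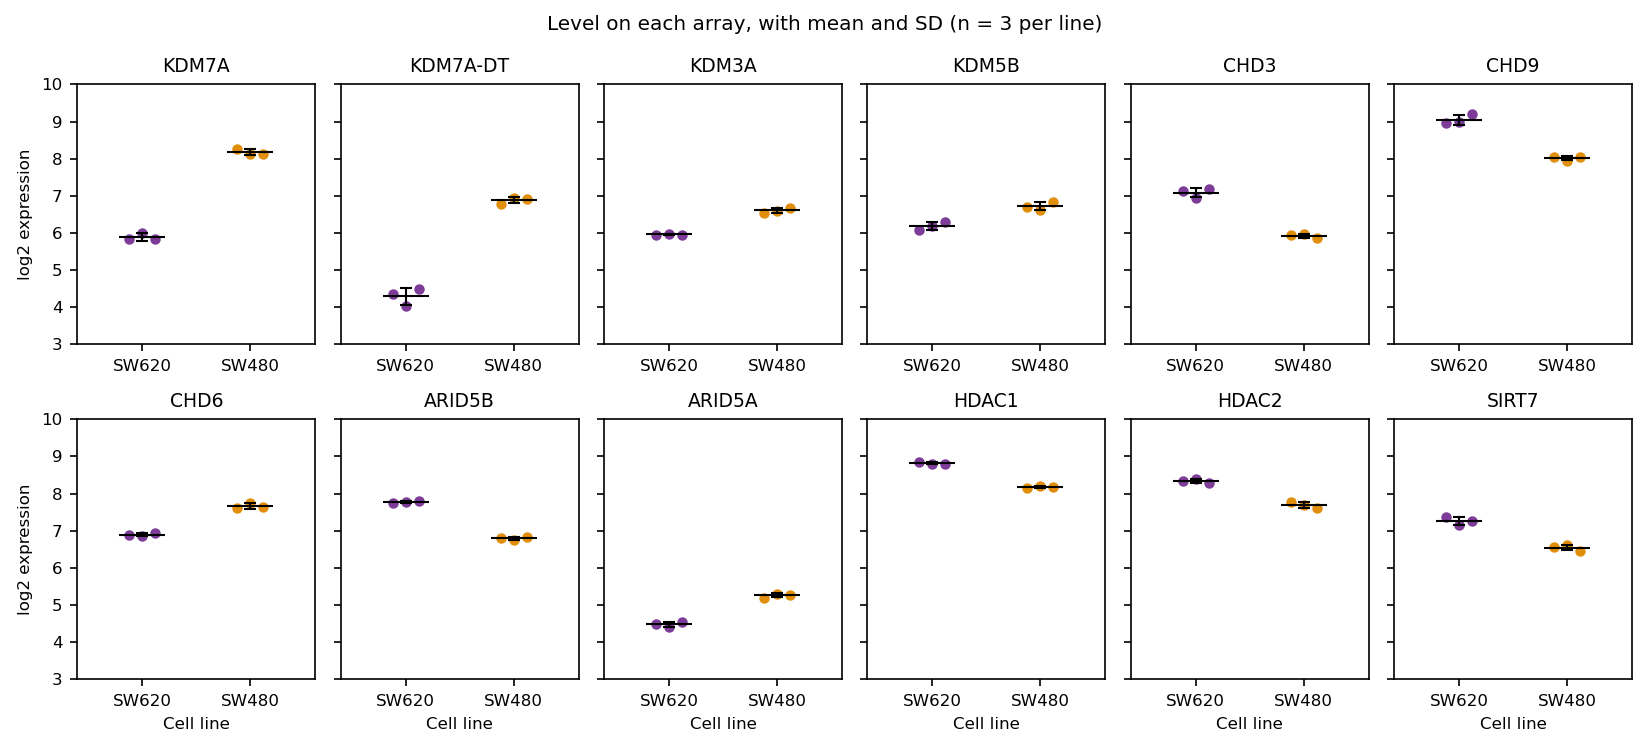
Log2 expression of 12 genes on each of the 3 SW620 arrays (purple, left) and the 3 SW480 arrays (orange, right); horizontal bars are means and error bars SDs. In all 12 panels the arrays of the lines do not overlap, and the gap is widest for KDM7A and KDM7A-DT.

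Of 7 KMT genes, 2 rose, 2 fell and 3 did not pass. The KMT2 enzymes, which place the methyl mark of active promoters and enhancers, were split. KMT2C had 8.81, 8.82 and 8.99 in SW620, against 8.46, 8.52 and 8.58 in SW480, a rise of 0.35 (standard error 0.0870, adjusted p = 0.0063). KMT2D, the paralogue of KMT2C at enhancers, had 7.38, 7.39 and 7.60 in SW620, against 7.07, 7.17 and 7.21 in SW480. It rose by 0.30 (adjusted p = 0.0182), and did not pass without SW620 replicate 3 (0.0698) or SW480 replicate 1 (0.0696). The promoter enzyme KMT2B had 5.27, 5.46 and 5.51 in SW620, against 5.96, 5.83 and 5.82 in SW480, and fell by 0.46 (standard error 0.0918, adjusted p = 0.00153). The antisense transcript KMT2E-AS1 had 4.75, 4.59 and 4.62 in SW620, against 5.15, 4.99 and 5.04 in SW480, a fall of 0.41 (adjusted p = 0.00235). The histone H4 enzymes KMT5A (0.0700), KMT5B (0.0388) and KMT5C (-0.0978) did not pass.

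Of 10 CHD remodellers, 3 rose, 1 fell and 6 did not pass. CHD3, an ATPase of the NuRD complex, had 7.12, 6.94 and 7.18 in SW620, against 5.93, 5.97 and 5.86 in SW480. Every SW620 array lay well above every SW480 array, and the rise was 1.16 (standard error 0.0897, adjusted p = 3.59e-07) or 2.23-fold. The alternative NuRD ATPase, CHD4, differed by 0.14 (adjusted p = 0.224) and the dim CHD5 by 0.15 (adjusted p = 0.189). Members of subfamily III went in opposite directions. CHD9 had 8.97, 8.98 and 9.20 in SW620, against 8.04, 7.94 and 8.05 in SW480, a rise of 1.04 (standard error 0.0907, adjusted p = 1.17e-06) or 2.05-fold. CHD6 had 6.89, 6.85 and 6.93 in SW620, against 7.61, 7.75 and 7.64 in SW480, a fall of 0.78 (standard error 0.0825, adjusted p = 7.09e-06), and its fold was 1.72.

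CHD8, a remodeller that binds beta-catenin, had 7.33, 7.42 and 7.47 in SW620, against 7.10, 7.16 and 7.17 in SW480. Its rise of 0.26 (adjusted p = 0.0258) was lost without SW620 replicate 2 (0.0663), SW620 replicate 3 (0.0740) or any SW480 array (0.0530 to 0.0797). CHD7, the gene of CHARGE syndrome, differed by 0.0743. CHD1 (-0.15) and CHD2 (0.16), remodellers of transcribed genes, and CHD1L (-0.00598), a remodeller recruited by poly(ADP-ribose), did not pass either.

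Of 8 ARID genes, 3 rose, 1 fell and 4 did not pass. The alternative DNA-binding subunits of the canonical BAF complex both rose. ARID1B had 7.38, 7.51 and 7.57 in SW620, against 6.80, 6.89 and 6.85 in SW480, a rise of 0.64 (standard error 0.0854, adjusted p = 6.02e-05). ARID1A, a tumour suppressor, had 7.35, 7.59 and 7.52 in SW620, against 6.99, 7.24 and 6.82 in SW480, a rise of 0.47 (standard error 0.112, adjusted p = 0.00495). The ARID5 paralogues moved apart. ARID5B, a partner of the demethylase PHF2, had 7.76, 7.77 and 7.79 in SW620, against 6.80, 6.76 and 6.82 in SW480, a rise of 0.98 (standard error 0.0786, adjusted p = 5.11e-07) or 1.97-fold. ARID5A, which also binds and stabilises some cytokine mRNAs, had 4.49, 4.40 and 4.54 in SW620, against 5.19, 5.30 and 5.27 in SW480, a fall of 0.78 (standard error 0.0833, adjusted p = 7.49e-06). ARID3A (0.0208), ARID3B (0.0579), the dim ARID3C (-0.13) and ARID4B (0.14), a subunit of the SIN3 complex, did not pass.

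Among paralogues set side by side, HDAC1 and HDAC2, KDM1A and KDM1B, ARID1A and ARID1B, and KMT2C and KMT2D each rose as a pair, with the call of KMT2D resting on single arrays as given above. KDM3A and KDM3B fell as a pair. Both genes passed, in opposite directions, in KDM5A and KDM5B (0.24 and -0.53), ARID5B and ARID5A (0.98 and -0.78), and CHD9 and CHD6 (1.04 and -0.78). The call of KDM5A was lost whenever any single array was left out, as given above. Only the first gene of the pair passed in CHD3 and CHD4 (1.16 and 0.14) and in CHD8 and CHD7 (0.26 and 0.0743), and neither passed in KAT2B and KAT2A (0.22 and -0.18). The call of CHD8 rested on single arrays too. Of HDAC4, HDAC5, HDAC7 and HDAC9 only HDAC9 passed, and of KDM4A, KDM4B and KDM4C only KDM4C. The KDM1, KDM3 and ARID5 pairs and the pair of CHD9 and CHD6 were not on the list of paralogues planned for comparison. All of these are differences of separate genes, and a difference between paralogues was not tested.

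The genes lie on many chromosomes, and their surroundings differed between the lines too. For each gene the median difference was taken over the nearest measured genes, up to 10 on each side. It had the sign of the gene's own difference for 22 of the 23 genes that rose (95.7%), the exception being HDAC9 (neighbours -0.0198), while over all genes called higher the share was 78.0%. For the genes that fell it was 6 of 10 (60%), against 67.0% of all genes called lower. The sign was counted however small the neighbours' difference was, down to 0.000293 around KDM4C. The neighbours differed by at least 0.2 in either direction for 5 of the 23 genes that rose and 3 of the 10 that fell. Over all genes this held for 378 of 2388 called higher and 703 of 2905 called lower. Across the 70 genes Pearson's r was 0.33 and Spearman's rho 0.53, against 0.29 and 0.34 across all genes; genes that lie close together share neighbours and all points share the same 6 arrays. On chromosome 10, where 156 of 611 genes were higher and 79 lower, all 3 members rose. Their neighbours differed by 0.40 around ARID5B, 0.38 around SIRT1 and 0.25 around KAT6B. On chromosome 6, with 182 of 760 genes higher and 80 lower, HDAC2 (neighbours 0.34), ARID1B (0.27) and KDM1B (0.13) rose and SIRT5 did not pass. Other chromosomes differed from this. On chromosome 17, 116 of 884 genes were higher and 202 lower, yet of 6 members 3 rose and 0 fell. On chromosome 7, with 73 of 701 genes higher and 283 lower, 2 of 5 members rose and 3 fell. Chromosomes 9 and 14 also had more lower than higher genes, and KDM4C and CHD8 on them rose.

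Neighbours were lower around KDM3A (-0.41) and ARID5A (-0.24) on chromosome 2, where 68 of 960 genes were higher and 330 lower, and around KMT2E-AS1 on chromosome 7 (-0.73), which itself fell by 0.41. Around the genes with the largest changes the neighbours differed by less than the genes did. The neighbours of KDM7A differed by 0.15 and those of KDM7A-DT by 0.12, with the other transcript of the pair among them, while the genes themselves differed by -2.28 and -2.59. Those of CHD3 (0.0391), CHD9 (0.0508) and CHD6 (-0.0979) differed little. Neither copy number nor its part in these differences was measured or tested here.

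**Figure D4:**
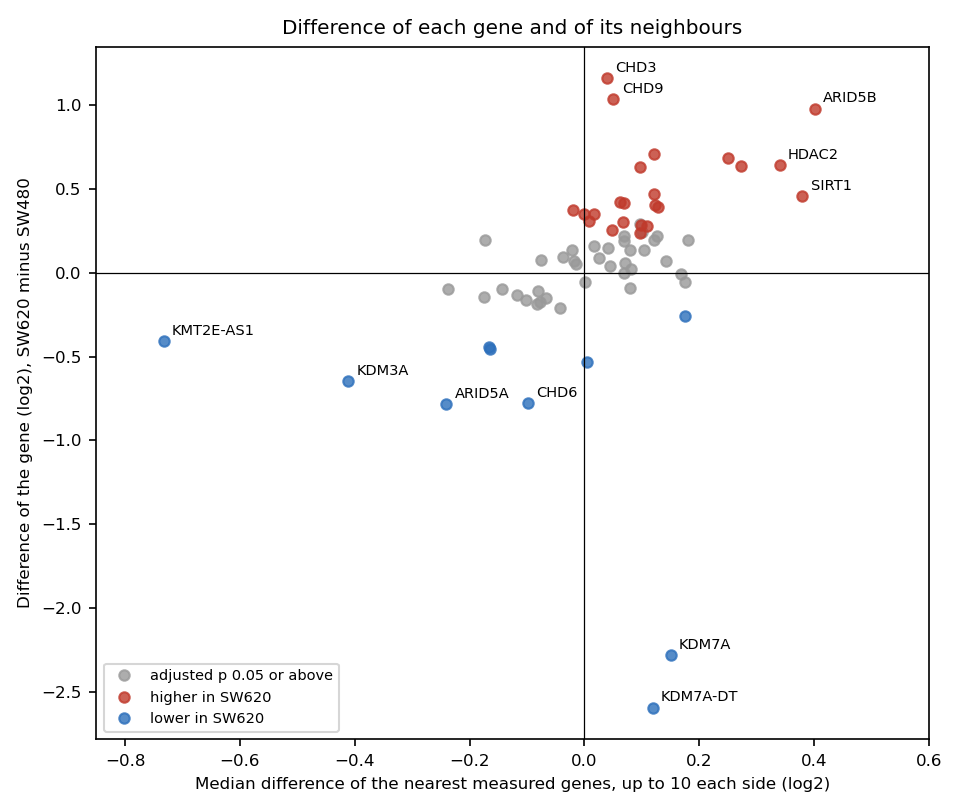
Difference of each gene (vertical axis, log2, SW620 minus SW480) against the median difference of its nearest measured genes (horizontal axis, log2), without KDM5D; colours give the calls. ARID5B, SIRT1 and HDAC2 lie to the right among raised neighbours, KMT2E-AS1 and KDM3A to the left, and CHD3, CHD9, KDM7A and KDM7A-DT lie near 0 to 0.15 on the horizontal axis.

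Of 245 genes on 10 lists of partners and related genes, 176 were measured, so the counts below do not cover whole complexes. Among the 176, 82 passed (46.6%, against 35.6% of all genes), 44 of them higher and 38 lower, with a median of 0.0330. Of the 168 above the median feature 81 passed (48.2%, against 49.8% of all such genes), so this share too was near the background. Among the scaffolds of the NuRD, CoREST and SIN3 complexes, in which HDAC1, HDAC2, KDM1A and CHD3 work, 4 of 16 rose and 3 fell. RCOR2, a CoREST scaffold that binds KDM1A, had 5.83, 5.67 and 5.73 in SW620, against 3.83, 4.01 and 3.94 in SW480, a rise of 1.82 (adjusted p = 3.55e-09) or 3.53-fold, from an SW480 mean below the median feature. MIER1, a scaffold for HDAC1 and HDAC2, rose by 0.48, and TBL1X, of the NCOR complexes, fell by 0.65.

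Of 25 measured Polycomb genes, 6 rose and 7 fell, and the largest changes were falls. PCGF5, a subunit of a variant Polycomb complex, fell by 1.54 (2.91-fold), its relative PCGF2 by 1.15 (2.23-fold) and the methyltransferase EZH1 by 0.67. Of 20 other lysine methyltransferases, 3 rose and 5 fell, with SETD7 lower by 2.14-fold and SETD9 and SETD6 higher by 1.79-fold and 1.47-fold. Of 11 partners of the KMT2 enzymes, 1 rose and 4 fell. The core subunits DPY30 (-0.67, adjusted p = 7.33e-05) and WDR5 (-0.43, adjusted p = 0.0145) fell, as did BOD1 (-0.59), which is known for chromosome attachment in mitosis. Of 13 other subunits of BAF complexes, 3 rose and 4 fell, among them BRD7 (0.89), PHF10 (-0.57) and BCL11A (-0.69). Of 27 acetyl coactivators and readers, 6 rose and 7 fell. TRRAP, the scaffold of the KAT2 and KAT5 complexes, fell by 0.84, the coactivator NCOA1 by 0.76 and the KAT7 partner JADE1 by 0.67.

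DNA methylation genes held a further split pair. Of 12 measured, 4 rose and 3 fell. TET1, which oxidises methylcytosine, had 7.96, 7.74 and 7.92 in SW620, against 6.20, 6.14 and 6.08 in SW480, a rise of 1.74 (adjusted p = 6.73e-09) or 3.33-fold. TET2, a paralogue with the same activity, had 5.41, 5.44 and 5.62 in SW620, against 6.98, 7.11 and 7.06 in SW480, a fall of 1.56 (adjusted p = 1.99e-08) or 2.95-fold. The lines do not overlap for either gene. TDG, which removes the oxidised base, rose by 0.35. Of 10 genes on the arginine methyltransferase list, 5 rose and 1 fell. The list includes WDR77, a PRMT5 partner and not a methyltransferase, which rose by 0.26. The largest rises were those of PRMT7 (8.42, 8.24 and 8.18 in SW620, against 6.64, 6.76 and 6.45 in SW480), with a rise of 1.67 or 3.17-fold, PRMT6 (0.51) and PRMT5 (0.46).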

How the data were processed

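Total RNA of 3 arrays per line was labelled as biotinylated sense-strand cDNA, per the labels' protocols. The deposited log2 values were made by the authors with RMA and Partek, according to the submitters' processing notes, whose versions were not stated. The log base was read from the range of values, so folds rest on it. Of 53616 features, 16098 had 1 gene symbol, 0 several and 37518 none here; all 16098 matched RefSeq gene IDs (GRCh38.p14), used for current names, neighbours and start windows. The feature with the highest mean over all arrays stood for each of 14884 genes, and no filter was applied. The comparison used limma 3.58.1 under R 4.3.3 (lmFit, eBayes, two-sided, no covariates, 8.39 prior degrees of freedom), adjusted by Benjamini-Hochberg over all genes at 0.05. The fit was tested on simulated data. Values are given for up to 4 risen and 4 fallen genes per family that passed without overlap of arrays. Those of KDM3B, a fallen gene outside this choice, are given beside those of KDM3A. Up to 3 changed genes are named per related list. The genes and lists were chosen with earlier results of these data known. Start windows were found for 62 of 71 genes. The labels name no batch or scan. Precision is limited by the number of arrays. The alternatives were 4 scalings, 2 filters on dim genes, a trended and robust variance, the mean of all features, all features tested, a replicate block, treat at 1.2-fold, a threshold of 0.01 and leaving out each array. A count of protein-coding genes only was added after seeing the data.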

Additional observations from a re-analysis of the deposited data

How the results depend on the processing

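No gene of the module that passed changed sign under any alternative, but most alternatives could not have shown such a change. The filters, the variance model, the test of all features, the replicate block, treat and the stricter threshold left each gene's difference as it was. Leaving out a single array cannot reverse a gene whose arrays do not overlap, as held for all 33. Direction was therefore checked only by the 4 scalings, and by the mean of all features for genes with several. Of the 33 called genes, 14 passed under every alternative and 25 whenever a single array was left out. The minimum difference mattered most. With treat at 1.2-fold, 2465 genes passed over the whole table, and in the module 8 were higher and 6 lower, with 2 called in the HDAC family, 1 in SIRT, 4 in KDM, 0 in KMT (4 without the minimum) and 1 in KAT. An adjusted p below 0.01 left 1 call in SIRT and 1 in KAT. Leaving out single arrays gave 4590 to 4984 genes in all, 18 to 23 higher and 9 to 10 lower genes in the module, 1 to 4 calls in SIRT and 1 to 3 in KAT; without SW620 replicate 1, SIRT2 (-0.30), KAT2B (0.32) and HDAC5 (0.36) passed as well. HDAC4, HDAC6 and KDM8, which narrowly missed the threshold, passed under some of the scalings and filters. Same-numbered arrays did not deviate together (r from -0.0234 to -0.00889), so replicate numbers were not taken as pairs. With the replicate block the module had 22 higher and 10 lower genes of 5215 called in all; KDM5A did not pass (adjusted p = 0.0561), and the calls of the other 32 held. The scalings gave 23 to 26 higher and 9 to 10 lower genes, and moved the median over all genes between -0.0117 and 0.0402. Counting protein-coding genes only, chosen after seeing the data, gave 23 higher and 8 lower. Detection calls and unprocessed intensities were not used here, so the background step of RMA could not be varied, and folds of dim genes such as KDM7A-DT and HDAC9 are limited by signal over background.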

Other observations

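Among 19 measured histone chaperones, 7 were higher and 2 lower, so 47.4% passed (median 0.17). Over all genes, 16% were higher and 19.5% lower. ASF1A, which hands newly made histones on for assembly, rose by 0.78 (1.72-fold, adjusted p = 5.72e-06), TSPYL1 by 0.46 and HIRA, which deposits a variant histone outside of replication, by 0.43. Of 23 genes of the INO80, SRCAP, TIP60 and ISWI complexes, 5 rose and 2 fell, among them CHRAC1 (0.49), INO80C (0.48) and ACTR5 (-0.57). Both lists were described by these counts alone, beside the 35.6% of all genes and the 49.8% of genes above the median feature that passed.

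The start windows of the module were rich in CpG. Over the 97 windows of 62 genes the median was 29 CpG per 300 bases, against 14 over all 35116 windows. The GC box was found in 64.9% of the module's windows, against 45.0% of all windows, and the TATA box in 2.06%, against 11.5%. A gene can have several windows, at alternative annotated starts. All windows include those of many non-coding genes, so this comparison is a description only.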
